A study of Bos taurus with 22 samples.

Results

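The antioxidant enzymes described here, 10 genes whose products remove superoxide and peroxides, were followed in the subcutaneous fat of dairy heifers around their first calving: the superoxide dismutases SOD1, SOD2 and SOD3, catalase (CAT), the glutathione peroxidases GPX1, GPX3 and GPX4, and the peroxiredoxins PRDX1, PRDX2 and PRDX6. Their probe sets were those whose only gene symbol in the array's probe annotation was 1 of these 10, which gave 15 of 24016 bovine probe sets, and the 10 genes stood among 9155 named by the same rule. SOD1, SOD2, CAT, GPX3, GPX4, PRDX1 and PRDX2 had 1 probe set each, SOD3 and GPX1 had 2 each, and PRDX6 had 4.

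The samples were whole subcutaneous white adipose tissue taken at a dorsal site from 11 Holstein cows, each hybridised to an Affymetrix bovine array 14 days postpartum and 30 days prepartum, 11 arrays per group. The animals calved for the first time at 24 to 28 months of age, came from a single farm, were fed freely and received no experimental diet, but the labels describe a prepartum and a postpartum ration separately. Lactation, ration and time from calving therefore cannot be told apart. In whole tissue, fewer cells of a type and less RNA per cell cannot be told apart either.

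Superoxide, a by-product of respiration and of the NADPH oxidases, is turned into hydrogen peroxide by the superoxide dismutases: SOD1 works in the cytosol, SOD2 in the mitochondrial matrix and SOD3 outside the cell. Catalase, a peroxisomal enzyme, and the glutathione peroxidases and peroxiredoxins then reduce the peroxide. The 3 glutathione peroxidases carry selenocysteine and draw on glutathione, whereas the peroxiredoxins use a reactive cysteine. Fat tissue is a source of the secreted form, GPX3, and oxidative load around calving is a long-standing interest in dairy cows.

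Some arrays stood apart from the rest. Summed signal of the 12 skeletal muscle markers that passed the filter was 81155 in the postpartum array of cow 384 and 51915 in the prepartum array labelled cow 387. It was also raised in cow 386 postpartum, at 10019, and in cow 384 prepartum, at 7654. The remaining arrays lay between 1415 and 2367 postpartum and between 1459 and 2258 prepartum. Within these sums, MYH7 (471 to 1367 postpartum, 575 to 1208 prepartum) and CKM (546 to 1051, 448 to 1063) were bright on every array. The other markers had medians of 7.74 to 96.1 postpartum and 7.07 to 79.0 prepartum. After group means were removed, the 2 arrays of a cow correlated at 0.18 to 0.43 in 10 cows and at -0.09 in cow 387. Of the epidermal markers, 2 passed the filter, KRT10 and KRT5, with a sum of 194 to 288 postpartum and 173 to 6188 prepartum, the highest in cow 341. The high sums came from KRT10, at 60.3 to 6002 prepartum, whereas KRT5 was 109 to 234 prepartum. KRT14, KRT15, DSG1 and SFN were below the filter. The 3 prime to 5 prime ratio of GAPDH, which tracks RNA integrity, was 1.26 on the log2 scale for cow 341 postpartum and -0.10 to 0.45 in the other postpartum arrays, against -0.05 to 0.62 prepartum. All 12 adipocyte markers on the array passed the filter, with a summed signal of 16694 to 34285 postpartum and 24359 to 35843 prepartum. The lowest sum was that of cow 384, 16694 postpartum against 33693 prepartum, on the postpartum array with the highest muscle sum. Of these 12, LPL, GPD1 and LEP passed the test as lower postpartum.

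The main question was how these enzymes differed between early lactation and late pregnancy within the same cow. One enzyme passed the test: GPX3, the secreted glutathione peroxidase, was higher postpartum. SOD2, the mitochondrial dismutase, was higher in 10 of 11 cows by a smaller amount and missed the threshold, at an adjusted p of 0.0727. None of the 10 enzymes was called lower, and SOD1, PRDX1 and PRDX2 had mean changes between -0.02 and 0.08 log2 units. The probe sets were tested with limma on log2(signal + 7.78), with cow as a block, and called at an adjusted p under 0.05 over all 14410 probe sets that reached the filter on dim signal. Of the 15 probe sets, 12 reached it and each of the 10 genes had at least 1 of them. One of the 12 was called higher and 0 were called lower, against 1.44% called higher and 1.98% called lower among all 14410 (3.43% in either direction). Unadjusted p was under 0.05 for 4 of the 12, and 2852 of 14410 probe sets met that level. Changes were positive in 5 of the 12 and negative in 7, with a median of -0.04 log2 units, beside 0.01 over all 14410. The median size of change without its sign was 0.18 for the 12 and 0.13 for all.

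**Figure D1:**
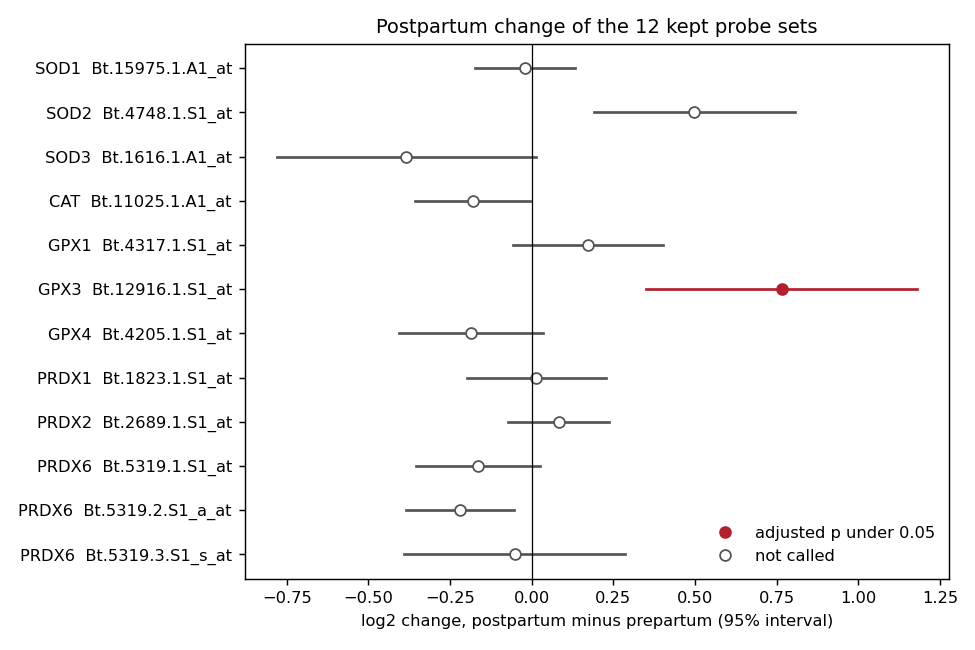
Log2 change of each of the 12 filtered probe sets, postpartum minus prepartum, with its 95% interval from the limma fit over 11 cows. GPX3 stands furthest to the right at 0.77, SOD2 follows at 0.50, and SOD3 stands furthest to the left at -0.38 with an interval that crosses 0.

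GPX3 is the enzyme with the largest difference. Its signal was 707 at the lowest, 1867 at the median and 2370 at the highest in the postpartum arrays, against 413, 876 and 1708 in the prepartum arrays. The groups overlapped: 6 postpartum arrays lay above every prepartum array, 4 prepartum arrays lay below every postpartum array, and the others shared a range. The log2 mean was 10.46 ± 0.64 postpartum and 9.70 ± 0.56 prepartum (SD, n = 11 each). The mean change within a cow was 0.77 log2 units (SE 0.19, 95% interval 0.35 to 1.18), a 1.70-fold higher level, with an adjusted p of 0.0441. An exact two-sided sign-flip test over the 11 cows, whose smallest possible p is 0.000977, gave p = 0.00586.

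The size of the GPX3 difference varied widely between cows. It was largest in cow 341, with a signal of 1972 postpartum and 413 prepartum (log2 change 2.24), and next in cow 360, with 2095 postpartum and 599 prepartum (1.79). In cow 386 the postpartum level was the highest of all, 2370, against 1708 prepartum, which was itself the highest of the prepartum arrays. Cows 384 and 387 had nearly level values, with changes of 0.08 and -0.03, and cow 331 had 707 postpartum and 813 prepartum (-0.20). Thus 9 of 11 cows were higher postpartum and 2 lower.

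**Figure D2:**
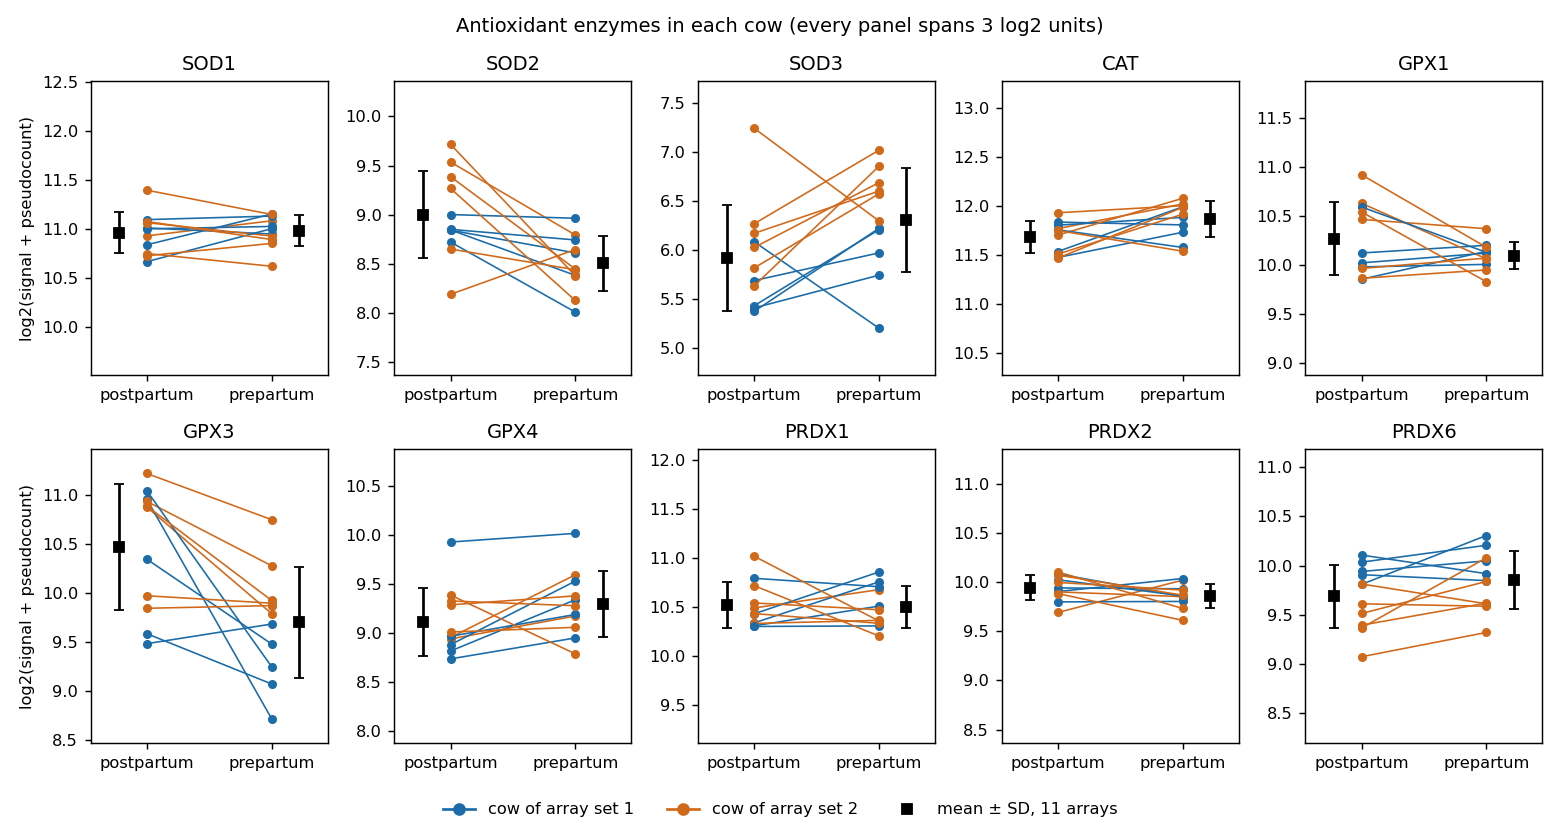
Log2(signal + 7.78) of each antioxidant enzyme, postpartum on the left and prepartum on the right of each panel, with a line joining the 2 arrays of a cow. GPX3 lines mostly run higher at the postpartum end, SOD2 lines do so in 10 of 11 cows, and the SOD1 lines are nearly level.

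The call of GPX3 rested close to the threshold. Leaving out 1 cow at a time gave changes between 0.62 (without cow 341) and 0.86, with adjusted p between 0.0232 and 0.0975, and the call held in 3 of these 11 fits, those without cow 331, 384 or 387. Without cow 341, whose postpartum array had the high GAPDH ratio, adjusted p was 0.0751. Without cows 384 and 387, the change was 0.93 and adjusted p was 0.0127. Without cows 330, 331, 341 and 382, whose prepartum arrays had the highest epidermal sums, it was 0.62 and adjusted p was 0.307. That fit called 6 of all 14410 probe sets. With no cow block, adjusted p was 0.0888. With a skeletal muscle covariate in the fit, the change was 0.76 and adjusted p was 0.0436. The part of RNA integrity and of epidermal tissue in the result was not tested.

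SOD2 came next. Its signal was 284 at the lowest, 454 at the median and 833 at the highest postpartum, against 249, 341 and 491 prepartum. The highest 5 postpartum arrays lay above all prepartum arrays, and the groups overlapped below that. The mean change was 0.50 log2 units (SE 0.14, 95% interval 0.19 to 0.81), a ratio of 1.41, and the exact sign-flip p was 0.0137. Cow 384 had the largest difference, 833 postpartum against 325 prepartum, and cow 346 the next, 608 against 271. The pair labelled cow 387 was the 1 pair in the opposite direction, with 284 postpartum and 392 prepartum. That postpartum value was the lowest of its group.

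Without cow 387, the 1 pair in the opposite direction, the SOD2 change was 0.59 and adjusted p was 0.0222. Without cows 384 and 387 it was 0.51 and adjusted p was 0.0178, so that SOD2 passed in both. Leaving out 1 cow at a time called SOD2 in 1 of 11 fits, the one without cow 387. Adjusted p in these 11 fits ran from 0.0222 to 0.1499. In the fit without cows 330, 331, 341 and 382, the change was 0.47 and adjusted p was 0.454. That fit called 6 of all 14410 probe sets. SOD2 is known to respond to inflammatory cytokines and is abundant in activated leukocytes. Of 14 macrophage and monocyte markers, 10 passed the filter. All 10 were higher on average postpartum (median 0.34 log2 units), and 0 of them passed the test. Their summed signal was 2188 to 12192 postpartum and 2242 to 5694 prepartum, and cow 387, with the lowest postpartum SOD2, had the highest sum. The 5 neutrophil markers that passed the filter summed to 209 to 7313 postpartum and 323 to 2711 prepartum, and MPO and ELANE were below the filter. Cows 382, 346 and 330 had the highest postpartum neutrophil sums, 7313, 4784 and 3222, with SOD2 changes of 0.94, 1.14 and 0.74. The next highest was that of cow 387, 2183 postpartum against 463 prepartum, with a SOD2 change of -0.46. Cow 360 had the lowest postpartum sum, 209 against 323 prepartum, with a SOD2 change of 0.71. Cow 384, with the largest SOD2 change, had a neutrophil sum of 291 postpartum and 373 prepartum. The part of blood cells in the SOD2 values was not tested.

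SOD1, the cytosolic copper and zinc enzyme, was among the steadiest. Signal was 1619, 2043 and 2687 at the lowest, median and highest postpartum, against 1567, 2046 and 2269 prepartum. The ranges covered each other almost completely. The mean change was -0.02 log2 units (adjusted p = 0.909), and its 95% interval of -0.17 to 0.13 bounds the ratio of postpartum to prepartum between 0.886 and 1.10. It was higher postpartum in 5 of 11 cows.

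SOD3, the extracellular dismutase, was dim, and its better probe set gave 33.6, 48.5 and 143 postpartum against 29.0, 70.7 and 122 prepartum. It was lower postpartum in 9 of 11 cows, with a mean change of -0.38 (95% interval -0.78 to 0.01, adjusted p = 0.269). Cows 331 and 387 were the 2 exceptions, with changes of 0.88 and 0.94, and the postpartum array of cow 387 held the highest value of the whole group. Without cow 387 the change was -0.52 (adjusted p = 0.0921). The other SOD3 probe set fell short of the filter, at 1.10 to 34.1 postpartum and 1.09 to 35.0 prepartum, with a change of 0.10 in the opposite direction (exact sign-flip p = 0.739). The 2 probe sets of SOD3 thus differed in direction, and neither passed a test.

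Catalase had a signal of 2822, 3432 and 3890 postpartum, against 2964, 3850 and 4309 prepartum. The lowest 4 postpartum arrays lay below all prepartum arrays and 5 prepartum arrays lay above all postpartum arrays, with overlap between. The change was -0.18 log2 units (SE 0.08, 95% interval -0.36 to -0.004), a ratio of 0.882, and 8 of 11 cows were lower. The exact sign-flip p was 0.042, but adjusted p over all probe sets was 0.241, so CAT was not called. It was higher postpartum in cows 331, 347 and 387.

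Among the intracellular glutathione peroxidases, GPX1, the general enzyme of cytosol and mitochondria, differed more in its spread than in its centre. Its brighter probe set gave 918, 1106 and 1928 postpartum, against 902, 1105 and 1315 prepartum. The medians were nearly equal, yet 5 postpartum arrays, those of cows 387, 346, 360, 382 and 330, lay above every prepartum array. The SD between cows was 0.37 log2 units postpartum and 0.14 prepartum, a ratio of 2.62, for which no test was made. The mean change was 0.17 (95% interval -0.06 to 0.40, adjusted p = 0.399), with 5 of 11 cows higher. Cow 387 had the largest change, 0.74, and the highest macrophage and monocyte sum, 12192 postpartum against 3744 prepartum. The next highest sum was that of cow 330, 6422 postpartum against 3286 prepartum, with a GPX1 change of 0.095, and cow 382 had 5268 postpartum and 4143 prepartum with a change of 0.71. Cow 386 had 5246 postpartum and 5210 prepartum with a change of -0.11. Cow 360 had 4828 postpartum and 2403 prepartum with a change of 0.46, and cow 346 had 4558 and 3924 with 0.57. The sum of cow 341 was 4355 postpartum and 2242 prepartum with a GPX1 change of -0.10. The median change of these markers was above 0 in 6 of 11 cows, the 5 with higher GPX1 and cow 341. In the remaining cows both changes were negative. The part of such cells was not tested. The other GPX1 probe set was below the filter, at medians of 13.2 postpartum and 11.6 prepartum.

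GPX4, which reduces lipid peroxides within membranes, had a signal of 418, 492 and 964 postpartum, against 433, 612 and 1026 prepartum. It was lower postpartum in 9 of 11 cows, cows 387 and 382 being the exceptions, and in all 5 cows of array set 1. The change was -0.19 log2 units (95% interval -0.41 to 0.03, adjusted p = 0.337) and did not pass. Without cows 384 and 387 it was -0.29 (adjusted p = 0.0554), still short of the threshold.

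The peroxiredoxins PRDX1 and PRDX2, which clear hydrogen peroxide in the cytosol with thioredoxin as their partner, gave no call. PRDX1 signal was 1257, 1377 and 2069 postpartum, against 1175, 1416 and 1850 prepartum, and the ranges overlapped. Its mean change was 0.01 (95% interval -0.20 to 0.23, adjusted p = 0.957). Its largest change, 0.66, was that of cow 384 and the next, 0.51, that of cow 387. Leaving out these 2 cows gave a mean of -0.11. PRDX2 signal was 820, 977 and 1094 postpartum, against 775, 923 and 1044 prepartum, with 8 of 11 cows higher. Its change of 0.08 (95% interval -0.07 to 0.24, adjusted p = 0.572) was the most even between cows of the positive ones, with an SD of 0.20. Red blood cells are rich in PRDX2. Only 2 of 12 erythrocyte markers passed the filter, with SLC4A1, ALAS2, AHSP and EPB42 below it. The 2 summed to 38.8 to 588 postpartum and 65.2 to 298 prepartum.

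PRDX6, which also acts on oxidised phospholipids and draws on glutathione, had 3 probe sets above the filter, and all 3 were lower on average. The clearest gave 511, 632 and 805 postpartum, against 525, 753 and 840 prepartum, with 2 postpartum arrays below all prepartum arrays and 3 prepartum arrays above all postpartum arrays. Its change was -0.22 (SE 0.08, 95% interval -0.38 to -0.05), 9 of 11 cows were lower and the exact sign-flip p was 0.00586. Adjusted p was 0.130, so it was not called. The next probe set gave -0.16 (adjusted p = 0.321) with 7 of 11 cows lower, and a dim one, at a median of 26.8 postpartum and 27.4 prepartum, gave -0.05 (adjusted p = 0.894). The fourth was below the filter, at 2.07 postpartum and 2.37 prepartum.

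**Figure D3:**
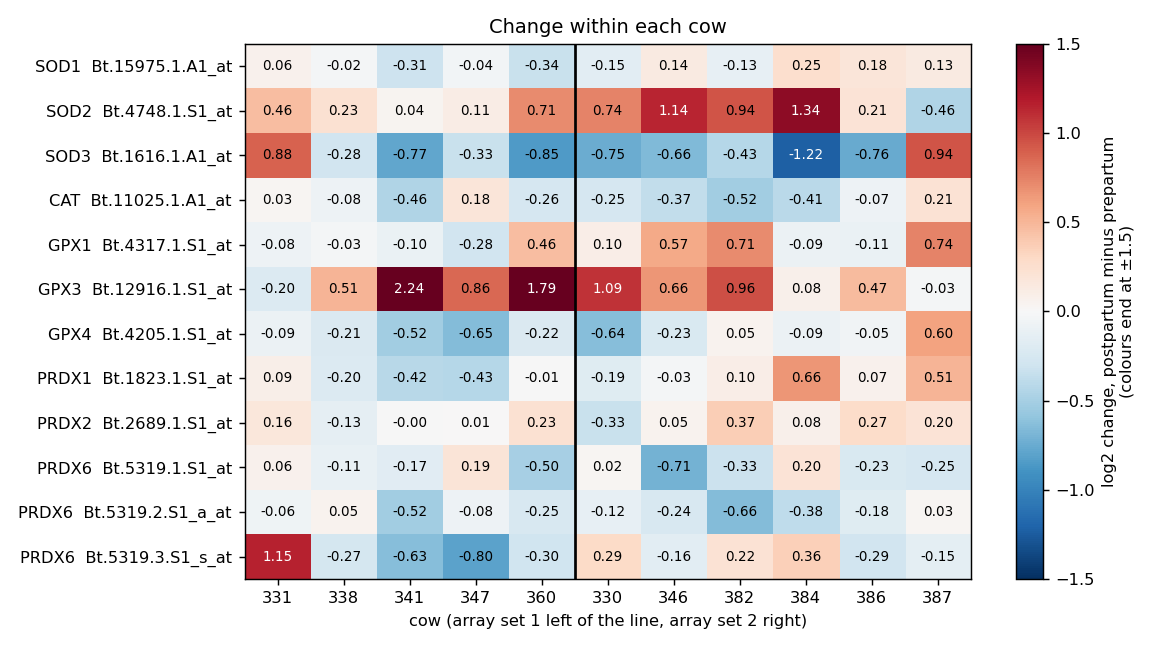
Change within each cow (columns) of the 12 filtered probe sets (rows), as log2 postpartum minus prepartum, with array set 1 left of the line and array set 2 right of it. The GPX3 row is strongest in cows 341 and 360, the SOD2 row in cows 384 and 346, and the column of cow 387 runs against most others for SOD2, SOD3 and GPX4.

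Across the 15 probe sets, the exact sign-flip p was under 0.05 in 4: GPX3, the clearest PRDX6 probe set, SOD2 and CAT. These p-values were not adjusted for the 15 tests. The sign-flip test was run on these 15 alone, so no share over all probe sets stands beside the count. In the limma fit, 2852 of all 14410 probe sets had an unadjusted p under 0.05.

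The sample titles end in 1 of 2 codes of unstated meaning, which place 5 cows in array set 1 and 6 cows in array set 2, both arrays of a cow always together. Within the sets, the mean change of GPX3 was 0.54 (SD 0.45) in set 2 and 1.04 (SD 0.98) in set 1, and that of SOD2 was 0.65 (SD 0.67) in set 2 and 0.31 (SD 0.28) in set 1. Fitted on 1 set alone, neither was called (GPX3 adjusted p = 0.329 in set 2 and 0.147 in set 1). Among all 14410 probe sets, these fits called 0 in set 2 and 69 in set 1. The missing call in set 2 was thus shared by every probe set. An interaction of period with set (set 2 minus set 1) was called for 0 of the 12, with 0% called among all 14410 and 516 of these under an unadjusted p of 0.05. The interaction of GPX3 was -0.50 (95% interval -1.32 to 0.32, adjusted p = 0.997). The lowest unadjusted interaction p of the 12 was 0.0561, for PRDX1, whose mean change was 0.19 in set 2 and -0.19 in set 1.

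**Figure D4:**
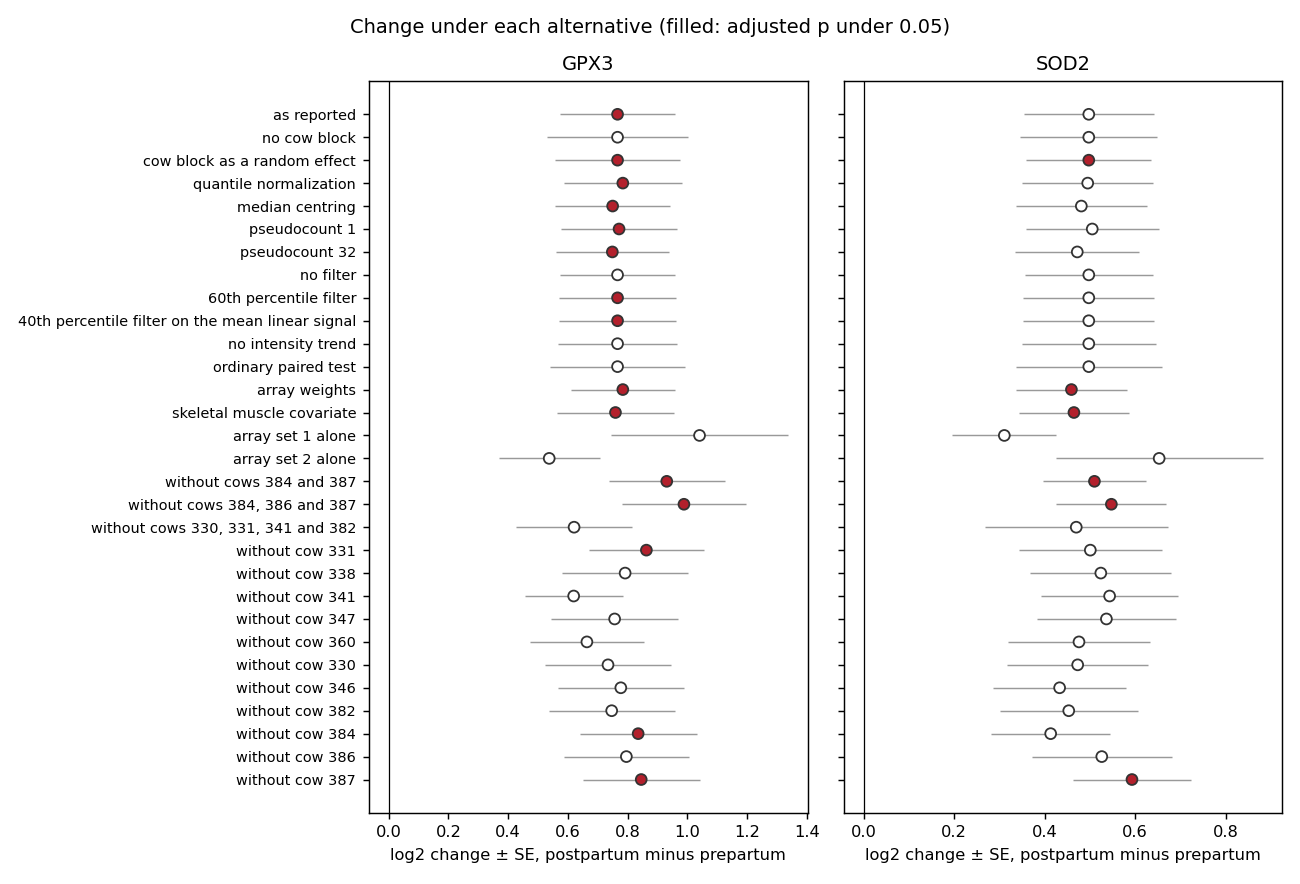
Log2 change with its SE, postpartum minus prepartum, of the enzymes named in the panels under each alternative processing or left-out cows, with filled points where adjusted p was under 0.05. The GPX3 points lie between 0.54 and 1.04 and the SOD2 points between 0.31 and 0.65, all above 0, whereas only some are filled.

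The other genes that supply, recycle or extend these enzymes were counted in 7 lists, with each gene represented by its brightest filtered probe set. Of 75 filtered genes, 4 were called higher and 4 lower, against 1.55% called higher and 2.16% called lower among all 6984 filtered named genes (3.71% in either direction). Of the 10 antioxidant enzymes on the same footing, 1 was called higher and 0 lower. The median change over all 6984 was 0.01 log2 units.

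The glutathione transferases, which couple glutathione to electrophiles, held 3 of the 8 calls. Of the 21 transferases listed, 9 had a probe set with that symbol alone, and all 9 passed the filter. Each of the 9 had an unadjusted p under 0.05, a level met by 2852 of all 14410 probe sets, with 3 positive and 6 negative changes and a median of -0.38. MGST1, a membrane transferase that also reduces lipid peroxides, had a signal of 323, 1145 and 4636 postpartum, against 1223, 2981 and 4889 prepartum. Its ranges overlapped, but 10 of 11 cows were lower, and it fell by 1.20 log2 units (SE 0.29, adjusted p = 0.0343). MGST2, a related membrane enzyme, gave 69.8, 110 and 149 postpartum against 52.7, 80.3 and 98.6 prepartum and rose in 11 of 11 cows (log2 change 0.50, SE 0.08, adjusted p = 0.00567). GSTK1, found in mitochondria and peroxisomes, rose by 0.37 (SE 0.09, adjusted p = 0.0393) in 10 of 11 cows.

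In the thioredoxin system and the remaining peroxidases, 1 of 18 filtered genes was called: GLRX3, a glutaredoxin that handles iron and sulphur clusters, rose by 0.33 (SE 0.07, adjusted p = 0.0244) in 11 of 11 cows. Of the regulators and targets of NRF2, the transcription factor that switches on many antioxidant genes, 1 of 15 was called higher and 1 lower. NQO1, a quinone reductase and classic NRF2 target, had a signal of 143, 192 and 262 postpartum against 154, 267 and 376 prepartum and fell by 0.40 log2 units (SE 0.09, adjusted p = 0.0323) in 10 of 11 cows. BLVRB, a biliverdin reductase, gave 141, 238 and 563 postpartum against 116, 176 and 215 prepartum and rose by 0.56 (SE 0.14, adjusted p = 0.0493), a call that was lost in 23 of 30 alternatives. NRF2 itself (NFE2L2) had a mean change of -0.11 (adjusted p = 0.488) and its inhibitor KEAP1 one of 0.02 (adjusted p = 0.964). Both were named for their roles after their values were seen.

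Of the genes that supply selenium and the other selenoproteins, 11 of 12 had a negative change, with a median of -0.17, and 1 was called. Over all 6984 named genes, 52.6% had a positive change. The negative sign was shared by only 1 of 2 kept probe sets of EEFSEC and 2 of 3 of SELENON. SELENOF, a selenoprotein of the endoplasmic reticulum, had a signal of 726, 958 and 1045 postpartum against 1034, 1151 and 1362 prepartum. Its groups barely overlapped, and it fell by 0.33 log2 units (SE 0.07, adjusted p = 0.0262) in 11 of 11 cows. Among the copper, zinc and metal partners, 1 of 7 was called: CP, the copper oxidase ceruloplasmin, gave 18.9, 51.7 and 152 postpartum against 31.6, 226 and 425 prepartum and fell by 1.53 (SE 0.32, adjusted p = 0.0175) in 9 of 11 cows. None of 9 filtered producers of superoxide and peroxide was called (limma; 2 had an unadjusted p under 0.05). The one with the smallest p was NCF4, a subunit of the phagocyte NADPH oxidase, with a change of 0.45 (adjusted p = 0.0845). None of 5 genes of glutathione synthesis and recycling was called, and 0 had an unadjusted p under 0.05. The one with the smallest p was GSS, glutathione synthetase, at -0.16 (adjusted p = 0.361).

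**Figure D5:**
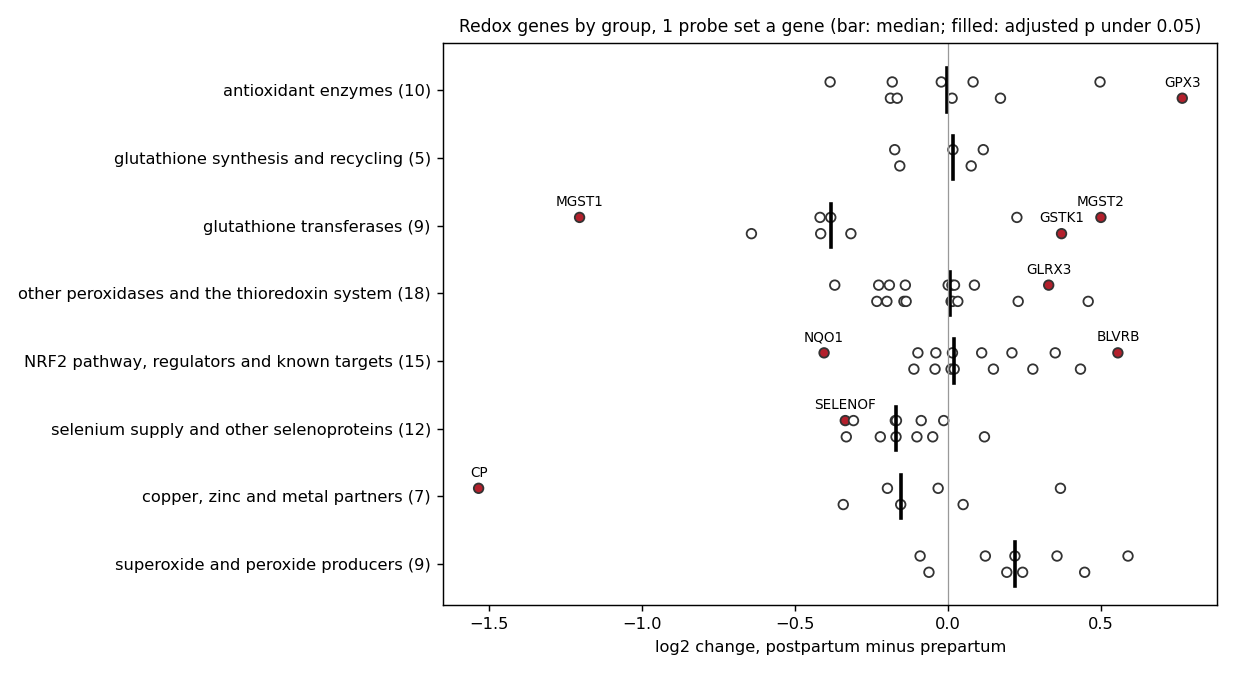
Log2 change, postpartum minus prepartum, of the 10 antioxidant enzymes and of 7 other redox groups, 1 probe set a gene, with a bar at each group's median and filled points where adjusted p was under 0.05. The glutathione transferases spread from -1.20 to 0.50, and the selenium group lies left of 0 but for 1 gene.

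These calls, like those among all probe sets, depended on the cows included. Without cows 384 and 387, 12 of the 75 were called, 4 higher and 8 lower. Without cows 330, 331, 341 and 382, 0 were called. Among all 14410 probe sets, 494 were called in the fit reported. That number was 1070 without cows 384 and 387 and 6 without cows 330, 331, 341 and 382. With each cow left out in turn, CP and MGST2 were called in all 11 fits, SELENOF in 8, GLRX3 in 7, MGST1 in 5, GSTK1 and NQO1 in 4 each and BLVRB in 2. Of these 8 genes, only CP and MGST2 were called without cow 341, at adjusted p of 0.0489 and 0.0178, and the other 6 then had adjusted p of 0.0591 to 0.0986.

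Last, the probe sets whose pattern came nearest to that of GPX3 were sought among 9000 filtered probe sets of other named genes. Over the 11 changes within a cow, Spearman's rho was highest for GABARAPL1 (0.96), FMR1 (0.95) and TMOD3 (0.93). Over the 22 levels it was highest for METTL3 (0.84), AOC1 (0.82) and SELENBP1 (0.82). These genes share arrays and cows with GPX3, and the highest of 9000 values is high by selection. Of the 6, SELENBP1, a selenium-binding protein, was also called, with a change of 0.55 (adjusted p = 0.0241).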

How the data were processed

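Biotin-labelled RNA of each sample was read on 1 Affymetrix bovine array. The authors deposited linear signal intensities, and MAS5 is the tool that the submitters' processing notes name. The MAS5 version, its settings and a genome build were not given in the sources used here. As deposited, the trimmed mean (2% off each end) was 125 on every array, and array medians ran from 39.9 to 47.4. The number of arrays limits the precision.

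Of 24128 probe sets, 112 array controls were left out. Of the 24016 bovine probe sets, 13292 had 1 symbol, 86 several and 10638 none, and 13263 symbols were updated through Entrez identifiers with a RefSeq gene table of ARS-UCD2.0. Values were log2(signal + 7.78), the added constant being the 20th percentile of signal (median of the 22 arrays), so changes of dim genes are understated. Probe sets with a mean at or above the 40th percentile (a signal of about 25.3) were kept, 14410 in all. Postpartum minus prepartum was tested with limma 3.58.1 in R 4.3.3 (intensity trend, cow as a fixed block, Benjamini-Hochberg over all kept probe sets, threshold 0.05), and every adjusted p comes from that fit unless named otherwise. The pairing comes from the cow numbers in the titles and the series design, and the correlation check of the pairs is given with the arrays. By the titles, each array of a group is a different animal.

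The members, the lists and the markers were chosen with earlier results of these data known. All probe sets of the 10 members are reported. Of each other redox list every called gene is named, or else the one with the smallest p, and of the genes most like a called member the first 3. For each other gene the brightest kept probe set stands for it. Alternatives varied the block, normalization, constant, filter, variance model, weights, array set, threshold and cows. Figures used matplotlib 3.10.9 in Python 3.11.15.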

Additional observations from a re-analysis of the deposited data

How the results depend on the processing

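The count of enzyme probe sets called for the postpartum effect, 1 in the fit reported, was 0 with no replicate block, with no filter, with no intensity trend, with an ordinary paired test, in either array set by itself and without cows 330, 331, 341 and 382. It was 2 (GPX3 and SOD2) with the replicate block as a random effect, with array weights, with a skeletal muscle covariate, without cows 384 and 387, without cows 384, 386 and 387, and at a threshold of 0.10. Leaving out single cows gave 0 to 2. Calls among all 14410 probe sets, 494 in the fit reported, moved too. They were 0 in array set 2, 69 in set 1 and 6 without cows 330, 331, 341 and 382. With no replicate block, no intensity trend or an ordinary paired test they were 338, 460 and 291. They were 708 with the random effect, 1076 with array weights, 625 with the muscle covariate and 1048 at 0.10. Without cows 384 and 387 they were 1070, without cow 386 too 950, and with single cows left out 242 to 969. The count for the difference between array sets was 0 in all 12 alternatives run. The count of other redox genes called, 8, was 5 with no replicate block, 3 with an ordinary paired test, 0 in either array set by itself, 0 without cows 330, 331, 341 and 382, 14 at a threshold of 0.10, and 2 to 11 with single cows left out. The count of sign-flip p under 0.05, 4, was 1 without cows 330, 331, 341 and 382 and 3 to 6 with single cows left out. Alternatives for the redox lists and the sign-flip test were chosen after seeing the data. Mean changes turned sign for enzymes near 0. PRDX1 (0.01) was -0.0022 with median centring, -0.055 with array weights, -0.19 in array set 1, -0.11 without cows 384 and 387, -0.14 without cows 384, 386 and 387, and -0.050 to 0.058 with single cows left out. SOD1 (-0.02) was 0.070 in array set 2, 0.043 without cows 330, 331, 341 and 382, and -0.048 to 0.011 with single cows left out. The dim PRDX6 probe set (-0.05) was 0.046 in array set 2 and -0.17 to 0.023 with single cows left out. GPX1 (0.17) was -0.0053 in array set 1. KEAP1 (0.02) was -0.0035 with quantile normalization, -0.12 with array weights, -0.017 with the muscle covariate, -0.19 in array set 1, -0.14 without cows 384 and 387, -0.18 without cows 384, 386 and 387, and -0.17 to 0.071 with single cows left out. GPX3 and SOD2 kept a positive sign in all 30 alternatives. Subsets of cows hold fewer samples; other causes were not tested.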
